A study of Mus musculus with 2 samples.

Results

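Cytosolic ribosomal protein genes were followed through the CD45+ cells of naive and bleomycin (BLM)-injured mouse lungs. The members were the gene columns named Rpl or Rps followed by a number, with the paralogue endings that mouse nomenclature uses, plus Rpsa, leaving out the ribosomal S6 kinases and the columns named as pseudogenes. This gave 81 of 24785 gene columns, 49 of the large subunit (Rpl) and 32 of the small subunit (Rps, with Rpsa), and all 81 were listed in both tables. A further 6 genes encode ribosomal proteins under names that the rule did not take, among them the P-stalk genes Rplp0, Rplp1 and Rplp2, and were kept as a list beside the members.

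The study asked which immune cells, Tregs in particular, change in the fibrotic lung. CD45+ lung cells of C57BL/6N mice were captured with the BD Rhapsody microwell system, which tags each captured transcript with a molecular identifier (UMI). The BLM library pooled 3 mice (10 to 16 weeks old) at day 15 after bleomycin, a drug that breaks DNA and scars the lung, and the naive library pooled 3 untreated mice. Each group was thus 1 library, with no label that separates the mice, so treatment and library cannot be told apart, no test between the groups was possible, and each interval given covers counting error only.

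A ribosome is built from ribosomal RNA and a fixed set of proteins, most of them present once per ribosome. Their mRNAs are among the most abundant in a cell, and many begin with a terminal oligopyrimidine (TOP) tract, a C followed by a run of pyrimidines, through which mTORC1 signalling controls their translation. Resting lymphocytes are known for a high share of such mRNA, whereas mature neutrophils carry little RNA and few ribosomes.

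RefSeq promoters (GRCm38.p6, the build of the deposited tables) were matched for 62 of the 81 members. A C followed by at least 4 pyrimidines (C or T), read on the gene's strand, stood at the annotated start of 12 of these 62 genes (19.4%), and at that of 3.01% of all 27025 genes with a promoter. Within 10 bases of the start, where annotated and used start sites can differ, it was found for 38 members (61.3%) and for 34.4% of all genes. Shown are 6 abundant members with the motif at the start, because they carry the feature that names the TOP class. Not all members were considered for this choice. Below them are 4 members that the results turn on and that lack the motif at the annotated base. Each line runs 5′ to 3′ from 10 bases before the start to 20 bases from it, the capitals mark the tract or, where there is none, the first transcribed base, and the places in order are chr2:39005112-39005141 (minus strand), chr3:90213629-90213658 (minus), chr7:4792955-4792984 (plus), chr16:33056472-33056501 (plus), chr11:114668570-114668599 (plus), chr2:180257369-180257398 (plus), chr7:3704031-3704060 (plus), chr10:128549149-128549178 (minus), chr3:28805498-28805527 (plus) and chr9:66946076-66946105 (plus).
Rpl35: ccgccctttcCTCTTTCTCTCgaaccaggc
Rps27: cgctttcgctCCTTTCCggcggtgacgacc
Rpl28: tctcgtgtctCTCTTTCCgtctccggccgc
Rpl35a: gcttgccttcCTCTTTCCgccatcttggcg
Rpl38: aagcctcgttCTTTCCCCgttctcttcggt
Rps21: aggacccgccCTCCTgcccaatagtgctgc
Rps9: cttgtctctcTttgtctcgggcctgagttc
Rpl41: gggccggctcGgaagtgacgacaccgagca
Rpl22l1: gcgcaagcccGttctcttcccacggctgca
Rps27l: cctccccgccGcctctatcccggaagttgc

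The BLM library held 4714 cell barcodes with 22490782 UMIs and the naive library 4062 barcodes with 18019004 UMIs. After filtering, 4390 BLM and 3807 naive cells were kept, with a median of 2380 and 2700 UMIs per cell, and 22 barcode indices occurred in both libraries. Marker genes, none of them a member, placed 89.0% of BLM and 93.4% of naive cells in a class, and 10 classes had at least 50 cells in both libraries. In 8 of these every marker was more than 2-fold higher inside the class than outside, and in classical monocytes and cDC2 5 of 6 were.

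Members took 8.63% of the UMIs of all kept BLM cells and 9.0% of those of naive cells. Rps3, a small-subunit protein at the mRNA entry site, was the most abundant, with 2789 counts per 1000000 UMIs (CPM) in BLM and 2746 in naive cells. It was followed by Rps14, Rpl23, Rps27a (a fusion of ubiquitin and a small-subunit protein), Rpl9 and Rps4x, and the 10 most abundant members held 27.9% of member UMIs. A UMI stands for a captured molecule, so the values were not divided by transcript length. The 5 least abundant members were Rpl36al (310 UMIs over all kept cells), Rpl3l (210), Rps10 (185), Rpl39l (147) and Rpl10l (26), which together held 0.0263% of member UMIs. Rpl3l, Rpl39l and Rpl10l are paralogues best known from muscle or testis, but Rps10 is a core protein of every ribosome. Of its 75-base stretches 77.0% also lay in other annotated genes, and Rpl13a, another core gene with a low count (1252 UMIs), shared 56.3%. Abundant members shared as much or more. The 3 members that shared more than 90% had a median of 53530 UMIs over all barcodes. The 46 members that shared less than 50% had a median of 44450. The part of sharing in the low counts was not tested.

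Such sharing was common, because ribosomal protein genes have many processed copies. At least some 75-base stretches of 77 of the 81 members occurred in another annotated gene, and 35 members shared more than 50% of them. Reads that fit several genes can be dropped or split, so the order of members by abundance given above describes the columns and not the transcripts, and results below compare each member between cells. A total of 12 such copies had columns of their own and shared at least 20% of a member. Rps27rt, a copy of Rps27 that shares 98.5% of it, was the most abundant, with 20949 UMIs in kept cells, against 50680 for Rps27 itself.

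The member share differed more between cell classes than between libraries, as the plot of shares by class shows. It was highest in resting CD8 T cells, at 22.0% of UMIs in BLM (95% interval 21.9 to 22.2, 205 cells) and 19.3% in naive (19.2 to 19.4, 178 cells). Over all T cells it was 17.5% and 16.4%, in B cells 15.2% and 13.3%, in group 2 innate lymphoid cells (ILC2) 14.3% and 13.6%, and in NK cells 11.1% and 8.71%. Dendritic cells followed, with 11.2% in both libraries for cDC1, which cross-present antigen, and 9.82% and 9.87% for cDC2, which prime CD4 T cells. Classical monocytes stood at 9.12% and 9.03%, nonclassical monocytes at 8.13% and 8.77%, C1q macrophages at 6.83% and 6.37%, and alveolar macrophages at 5.71% and 6.31%. Neutrophils were at the bottom with 1.90% (1.88 to 1.93, 952 cells) and 2.02% (1.99 to 2.06, 435 cells).

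**Figure D1:**
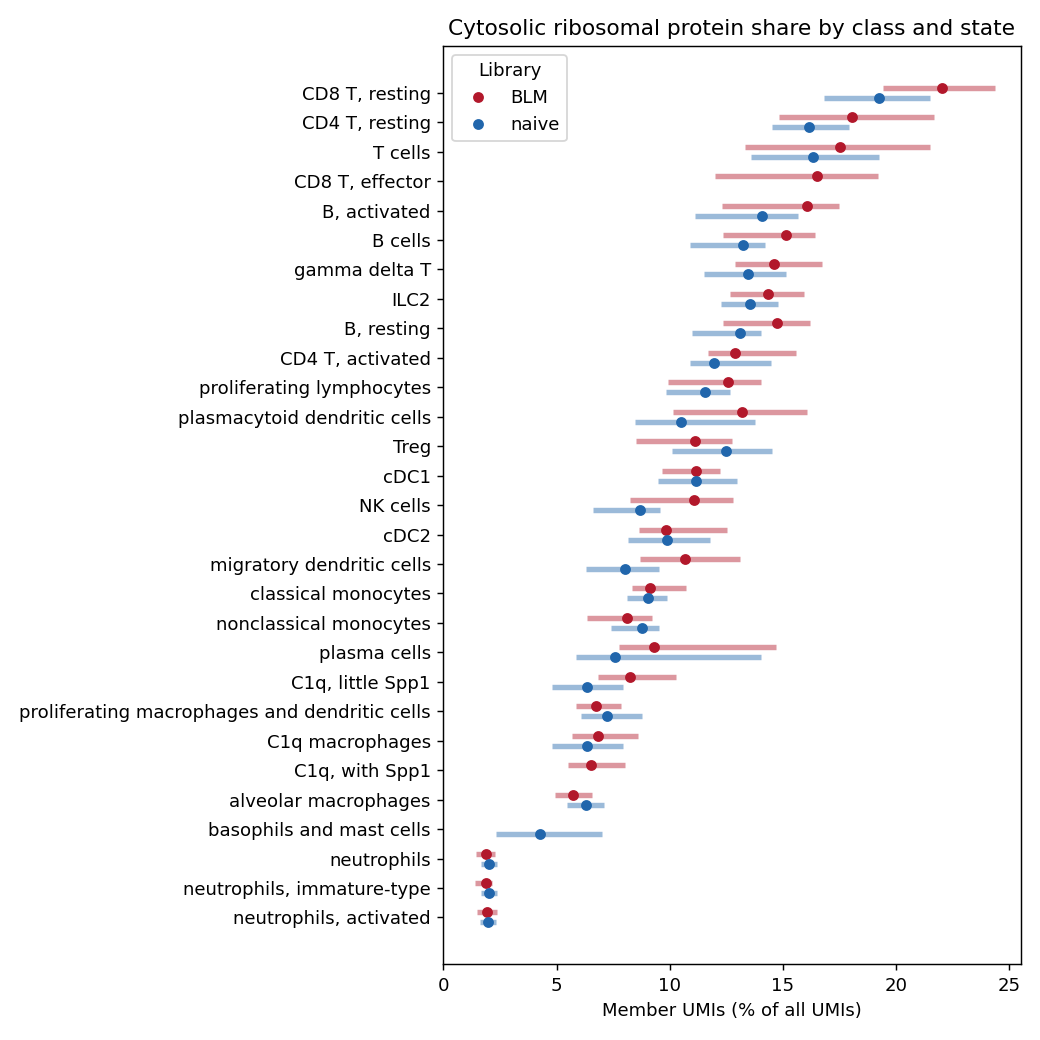
Share of member UMIs (% of all UMIs, x axis) in each marker-gated class or state with at least 10 cells; points are the share over the summed cells of the BLM (red) or naive (blue) library and bars run from the 25th to the 75th percentile of the cells. Neutrophils sit near 2% in both libraries and resting CD8 T cells at 22.0% and 19.3%.

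The single cells of the classes at both ends were far apart. The middle 50% of neutrophils had shares of 1.46 to 2.29% in BLM and 1.65 to 2.38% in naive, and that of resting CD8 T cells 19.4 to 24.4% and 16.8 to 21.5%. Neutrophils were also the shallowest class, with a median of 1334 and 1573 UMIs and 0.612% and 0.771% mitochondrial UMIs. B cells were nearly as shallow (1683 and 1952 UMIs) but had 10% and 9.54% mitochondrial UMIs. With cells thinned to 1000 UMIs, the neutrophil shares were 1.90% and 2.05% and those of B cells 14.5% and 12.7%. Cells with fewer UMIs were left out (117 BLM and 11 naive neutrophils, 21 and 7 B cells). Random thinning leaves the share of a cell unchanged on average, so these values weigh cells equally and do not test an effect of depth. T cells exceeded neutrophils by a log2 ratio of 3.20 in BLM (3.19 to 3.22) and 3.01 in naive (2.99 to 3.04).

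Neutrophils also differed in which members they held. Among the 71 members with at least 20 UMIs in each of the 10 classes of both libraries, 30 had their lowest share of member UMIs in neutrophils in both libraries and 11 their highest. Rps9, which sits where the ribosome reads the mRNA, made up 762 and 715 of every 10000 member UMIs of BLM and naive neutrophils, against 161 to 284 in the other classes. Its level in CPM was 1449 and 1446 in neutrophils, close to the 1360 and 1372 of alveolar macrophages, whereas Rps3 was at 697 and 626 in neutrophils and at 1832 and 1915 in alveolar macrophages. Rps27a (616 and 613 of 10000), Rps27 (346 and 359) and Rpl37 (215 and 263) were highest in neutrophils too. Rpl12, part of the stalk base, was the opposite case, with 40.2 and 48.9 of 10000 in neutrophils and 180 and 181 in T cells. Rpsa, the laminin receptor precursor that joins the small subunit, had 43.5 and 31.7 in neutrophils and 143 and 123 in cDC1.

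**Figure D2:**
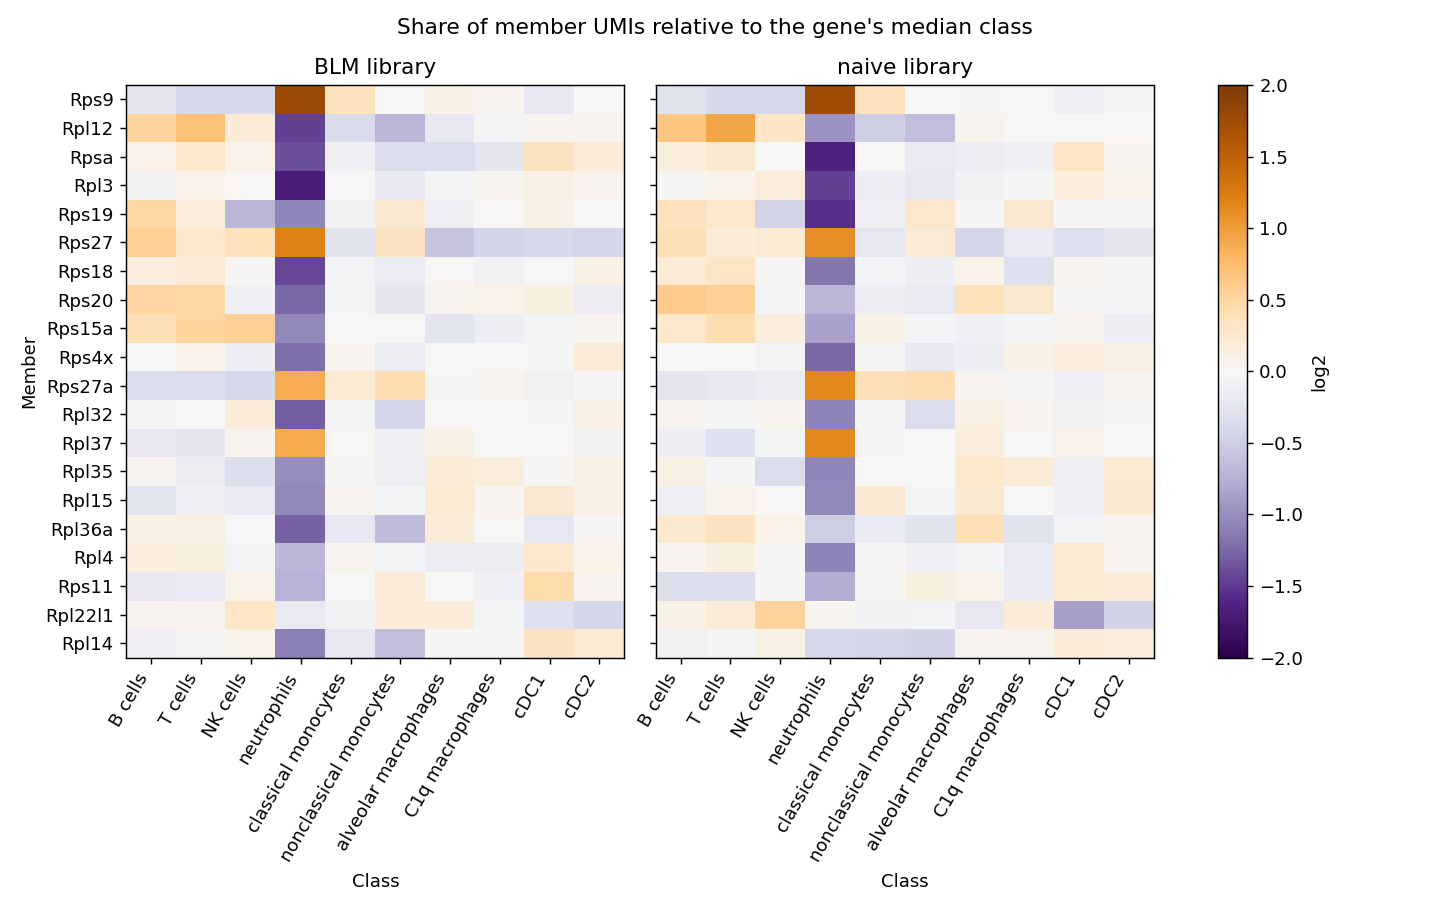
A set of 20 members with a wide range over 10 classes; color is the log2 share of member UMIs of a gene in a class less that gene's median over the classes, for the BLM (left) and naive (right) library. The neutrophil column holds the strongest colors in both, high for Rps9, Rps27, Rps27a and Rpl37 and low for most others.

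Most members were spread less widely. The range over the 10 classes, neutrophils included, had a median over the 71 members of 0.71 (BLM) and 0.73 (naive) on the log2 scale, and Rpl30 and Rpl11 were among those that varied least, by 0.31 or less. Rps27 was lowest in alveolar macrophages in both libraries, at 99.0 and 123 of 10000 member UMIs. Rps19, the gene most often mutated in Diamond-Blackfan anemia, was highest in B cells, at 150 and 135.

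Several ribosomal proteins have a close paralogue that can stand in for them, and the relative use of the pair differed by class. Rps27l, a p53 target that encodes a near-identical form of Rps27, was almost absent from lymphocytes. Its level was 37.7 and 37.9 CPM in BLM and naive T cells and 35.4 and 33.8 in B cells, or 1.18% (0.923 to 1.48) and 1.21% (0.927 to 1.55) of the UMIs of the Rps27 and Rps27l pair in T cells. The copy Rps27rt was not counted in the pair. In cDC1 it reached 222 and 212 CPM and 14.9% and 12.4% of the pair, and in migratory dendritic cells, which have matured to carry antigen to lymph nodes, 624 and 423 CPM and 27.9% (25.3 to 30.7) and 26.7% (20.8 to 33.3). The intervals of T cells and migratory dendritic cells were far apart in both libraries. Proliferating lymphocytes lay between, with 9.36% and 8.11%.

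In several myeloid classes, but not in all, the Rps27l portion was larger in the BLM library. It was 21.4% (19.8 to 23.2) against 14.6% (13.7 to 15.6) in alveolar macrophages, 17.7% against 7.77% in C1q macrophages, 21.6% against 13.8% in cDC2, 11% against 6.59% in classical monocytes, and 30.8% against 17.1% in proliferating macrophages and dendritic cells. Neutrophils (3.65% and 3.85%) and nonclassical monocytes (4.81% and 4.71%), like cDC1 and migratory dendritic cells, had overlapping intervals. The naive C1q value rested on 24 Rps27l UMIs of 59 cells. Rps27 was lower in BLM (565 against 779 CPM in alveolar macrophages), and Rps27l itself had a log2 ratio of 0.21 there (0.05 to 0.38), 1.03 in C1q macrophages (0.45 to 1.68), 0.41 in cDC2 (0.12 to 0.71) and 0.59 in classical monocytes (0.17 to 1.03). Cdkn1a, the p53 target that blocks the cell cycle, was at 1002 and 649 CPM in BLM and naive alveolar macrophages (log2 ratio 0.63, 0.56 to 0.69), and Mdm2, which degrades p53, at 54.0 and 56.7. Of the 12 p53 targets with at least 20 UMIs there (Rps27l among them), 2 were past 1.5-fold higher, beside 8.42% of all genes, and 2 past 1.5-fold lower, beside 25.0%. The list had a median of 0.02 but a sum of 0.36, of which Cdkn1a was the main part.

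Rpl22l1, the paralogue of Rpl22 that is needed in early hematopoiesis, was used more evenly. It held 33.6% and 35.5% of the UMIs of its pair in T cells, 33.1% and 31.9% in B cells, and 40.2% and 38.2% in NK cells, all with overlapping intervals between libraries. Alveolar macrophages differed, with 31.4% (28.8 to 34.1) in BLM and 21.2% (19.6 to 22.8) in naive cells, and cDC1 had 24.5% (19.9 to 29.6) and 16.3% (12.5 to 20.7). Rpl7l1, a nucleolar relative of Rpl7, stood at 41.4 and 42.7 CPM in T cells and 54.3 and 70.2 in alveolar macrophages. Rps4l and Rps12l1 were not analysed here.

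**Figure D3:**
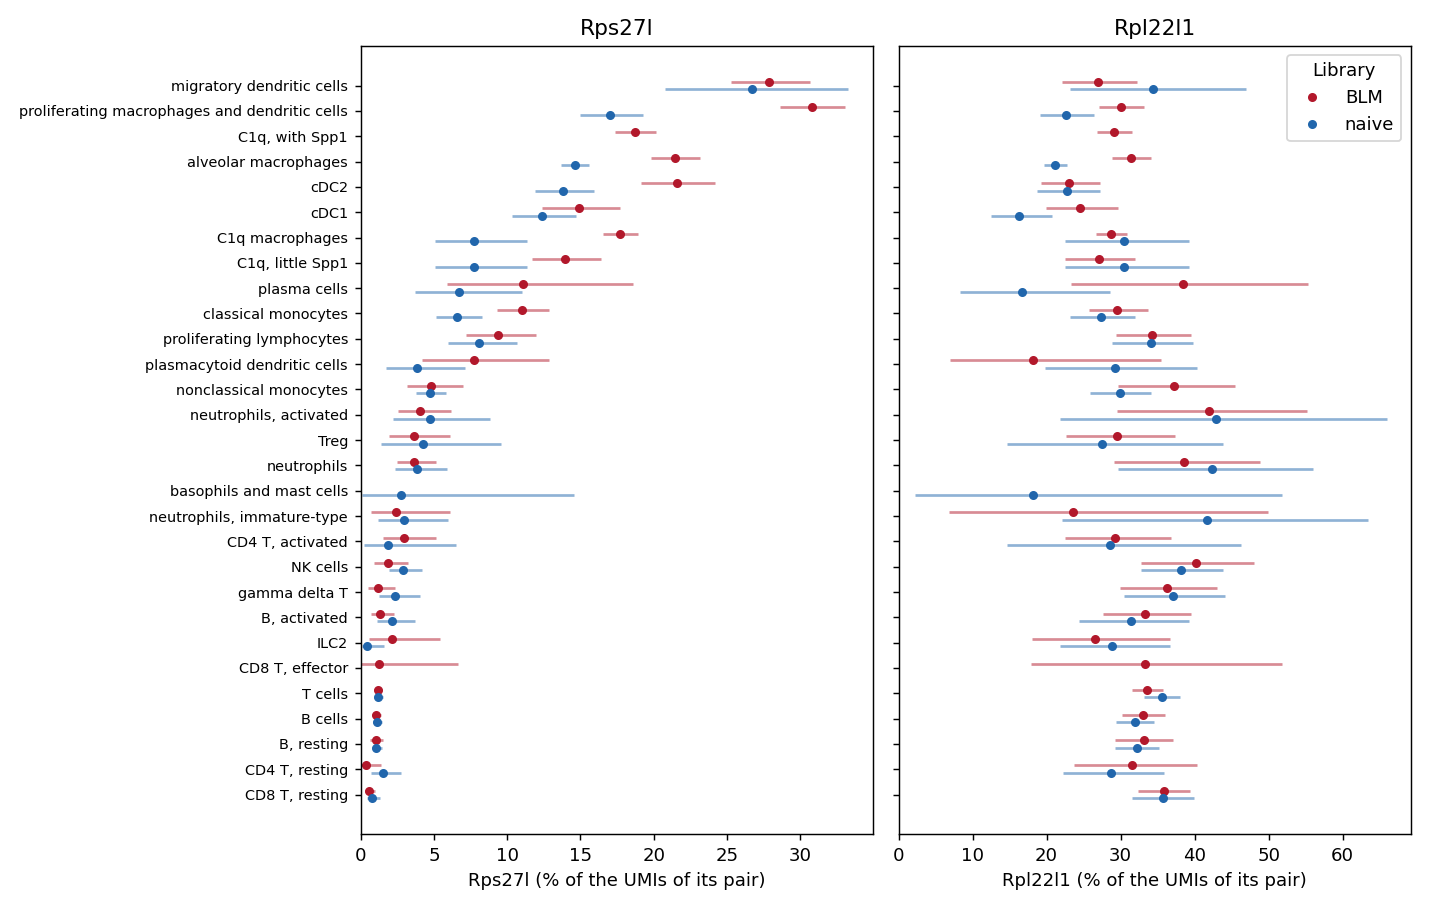
UMIs of Rps27l as a percentage of Rps27 plus Rps27l (left) and of Rpl22l1 as a percentage of Rpl22 plus Rpl22l1 (right) in classes and states with at least 10 cells; bars are exact 95% intervals that cover counting error only, BLM in red and naive in blue. Rps27l rises from about 1% in T and B cells to 27.9% and 26.7% in migratory dendritic cells and, in BLM, 30.8% in proliferating macrophages and dendritic cells. Rpl22l1 differs less. In BLM and naive it is at 40.2% and 38.2% in NK cells, 24.5% and 16.3% in cDC1, and 26.9% and 34.3% in migratory dendritic cells.

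Between the libraries, the member share was higher in BLM B, T and NK cells, but not in the Treg state (11.1% in BLM and 12.5% in naive). The log2 ratio of BLM over naive was 0.19 in B cells (0.18 to 0.20), 0.10 in T cells (0.09 to 0.11), 0.19 in resting CD8 T cells (0.18 to 0.21), and 0.35 in NK cells (0.33 to 0.37), where the share was 11.1% against 8.71%. Most members took part. In B cells 64 of 78 members with at least 20 UMIs were higher in BLM, with a median log2 ratio of 0.21, while the median over all 8591 genes was -0.10. In NK cells 68 of 76 members were higher and their median was 0.36, beside -0.11 for all genes.

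Few single members passed 1.5-fold. In B cells 1 of 78 did (Rpl35), where 6.16% of all genes tested were that far above. In T cells none of 78 did, beside 7.62% of all genes, while 2 were past 1.5-fold lower, beside 13.4% (0 when thinned), and in resting CD8 T cells 3 of 76 did (Rpl21, Rpl35 and Rpl36), beside 8.09%. In NK cells 11 of 76 were past 1.5-fold higher, beside 7.89% of all genes, and 6 when doublets were kept. Rpl35 led them, with 1687 CPM in BLM and 910 in naive NK cells, a log2 ratio of 0.89 (0.71 to 1.07), and Rpl32 followed with 1478 and 889 CPM and 0.73 (0.54 to 0.93). The lymphocyte difference was thus small per gene and spread over many members. Each share of all genes, here and below, belongs to the main setting, also where a count from another setting follows.

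The other ribosomal proteins and the TOP genes also summed above 0 in B and NK cells. The sums of the TOP genes in both classes, and of the other ribosomal proteins in NK cells, lay below those of the members. The 6 other ribosomal proteins summed to a log2 ratio of 0.19 in B cells (0.15 to 0.22) and 0.25 in NK cells (0.17 to 0.33), with none of the 6 and 5 genes tested past 1.5-fold. Rplp2, a stalk protein that recruits elongation factors, was at 3215 and 2521 CPM in BLM and naive B cells (0.35), but its partner Rplp1 was at 2757 and 2814 (-0.03). The 15 translation factors and other TOP genes summed to 0.13 in B cells (0.11 to 0.15) and 0.17 in NK cells (0.12 to 0.21), with 0 and 1 past 1.5-fold higher. Eef1a1, which delivers aminoacyl-tRNA, reached 10558 and 9699 CPM in B cells. Of 29 ribosome assembly genes in B cells 1 was past 1.5-fold higher (Myc, 156 and 103 CPM, log2 ratio 0.60), and Npm1, a nucleolar chaperone, had 1442 and 1053 CPM (0.45, 0.36 to 0.55). Mitochondrial ribosomal proteins, built into a separate ribosome, summed to -0.05 in B cells (-0.12 to 0.02).

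Transcripts of other cells also differed between the libraries. The 10 alveolar macrophage markers, of which 3 were at 0 in BLM and 0 in naive B cells, summed to 251 CPM in BLM and 559 in naive B cells, and to 213 and 561 in NK cells, while C1q macrophage markers were at 348 and 141 in B cells. In BLM and naive NK cells T cell markers were at 737 and 552 CPM, C1q macrophage markers at 195 and 122, and B cell markers at 50.6 and 66.6. The dissociation stress list (immediate early and heat shock genes) summed to 3049 and 2462 CPM in B cells and 4831 and 3628 in NK cells. Its heat shock gene Hspa1a was at 170 and 9.32 CPM in B cells and at 14.2 and 118 in alveolar macrophages. The part of these differences in the member share was not tested.

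In alveolar macrophages the member share was lower in BLM, with a log2 ratio of -0.14 (-0.15 to -0.14) and 60 of 80 members lower. Their median was -0.17, while that of all 10169 genes was -0.23, and 5 of 80 members were past 1.5-fold lower, beside 25.0% of all genes, a smaller share than among all genes. Rps10 and Rpl36al among them had under 100 UMIs, and 3 members passed with a minimum of 100. Rpl10, which helps to shape the catalytic center, was among the lowest at 510 CPM in BLM and 803 in naive cells (-0.66, -0.74 to -0.57). The BLM cells had a median of 13492 UMIs and the naive cells 9734. The 6 other ribosomal proteins summed to -0.29 and the TOP genes to -0.24, and 9 of 29 ribosome assembly genes were past 1.5-fold lower, among them Myc at 5.25 and 19.6 CPM (-1.90).

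The other myeloid classes gave small ratios. In neutrophils it was -0.09 (-0.12 to -0.06) with 4 of 75 members past 1.5-fold lower, beside 18.3% of all genes, and with doublets kept it was -0.01 with 0 members. Nonclassical monocytes had -0.11, C1q macrophages 0.10 and classical monocytes 0.01, while the intervals of cDC1 (0.00) and cDC2 (-0.01) held 0.

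**Figure D4:**
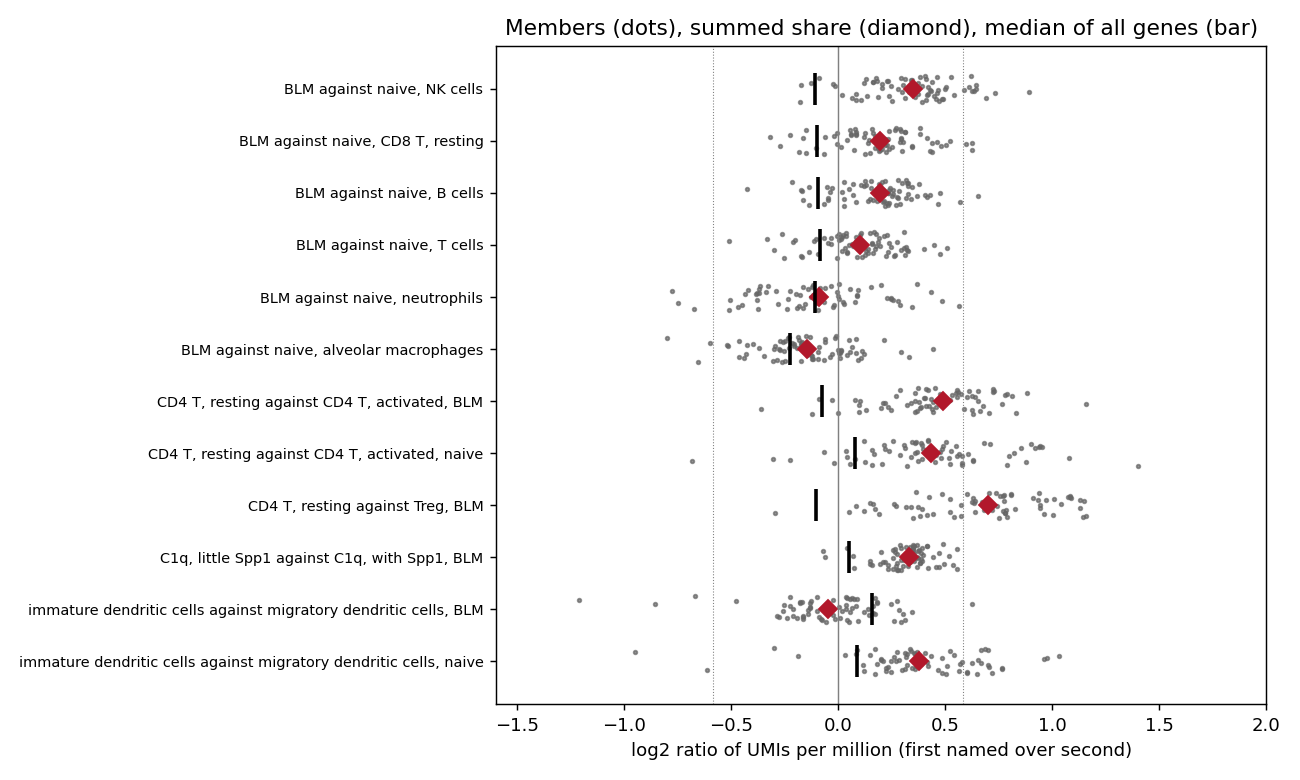
Log2 ratios of CPM between libraries or states; each dot is a member with at least 100 UMIs over both sides, the diamond is the summed member share, the black bar the median of all genes with at least 20 UMIs, and the dotted lines mark 1.5-fold. In the lymphocyte rows the diamonds lie at 0.10 to 0.35 and the bars at -0.11 to -0.09, and in alveolar macrophages both lie below 0.

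Beneath these class differences, some members kept to the same side of the median member in all 10 classes. After the median member's ratio was taken off, 13 of the 69 members with at least 100 UMIs in each of the 10 classes were above it in every class and 11 were below it in every class. The remaining members did not keep to a side. How many genes outside the members do so was not counted, so the pattern is not shown to be particular to members. The large subunit, with 39 of the 69 members, gave 11 of the 13 above and 3 of the 11 below. The small subunit, with 30 members, gave 2 and 8. The classes come from the same 2 libraries and are no independent repeats of the difference.

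Rpl35, whose start carries the longest tract shown above, was furthest above, by 0.40 to 0.63 (median 0.47). Its level in BLM and naive cells was 3028 and 1924 CPM in B cells, 3049 and 2143 in T cells, 1255 and 1025 in alveolar macrophages, 1478 and 977 in C1q macrophages and 182 and 130 in neutrophils. The BLM value was the higher of the pair in each class. Rpl21 and Rpl41, the latter the smallest ribosomal protein, were above by 0.26 to 0.68 and 0.27 to 0.87, and for these 3 genes the ratio before centering was also positive in all 10 classes. Rpl41 was at 487 and 252 CPM in C1q macrophages and at 562 and 335 in classical monocytes. Rpl32, Rpl37a, Rpl3, Rpl9, Rpl27, Rpsa, Rpl31, Rpl38, Rpl8 and Rps3 were above by medians of 0.10 to 0.23.

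Rps15 was furthest below, by 0.27 to 0.71 (median -0.53). It was at 720 CPM in BLM and 968 in naive B cells, 785 and 1117 in T cells, 218 and 313 in alveolar macrophages and 484 and 693 in cDC1. Rps13 (median -0.36) was below too, and both were lower in BLM in all 10 classes also before centering. Rpl10 (-0.41), Rpl24, Rpl29, Rps16, Rps20, Rps14, Rps27 and Rps21 were among the others below. Columns of copies were mostly lower in BLM whichever side their member lay on. Over all kept cells Rps27rt, a copy of Rps27, was at 469 and 653 CPM, while Gm2000, a copy of Rpl35, was at 55.8 and 68.4 and Rpl27-ps3, a copy of Rpl27, at 112 and 147.

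The balance of the subunits also differed slightly. Small-subunit genes held 50.3% of member UMIs in BLM and 52.1% in naive cells, and their portion was lower in BLM in all 10 classes, by 0.96 to 2.6 percentage points. The median centered shift was 0.03 for large-subunit and -0.03 for small-subunit members, and each subunit had members on both sides. Across the 69 members the median shift had a Spearman correlation of 0.037 with transcript length, given as a description because these genes share the same libraries.

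The member share differed between resting and activated T cells. Resting CD4 T cells, gated on Ccr7, Lef1 and other genes of naive and central memory cells, had 18.1% in BLM (62 cells) and 16.2% in naive (88 cells), while activated CD4 T cells had 12.9% (67 cells) and 12.0% (17 cells). The log2 ratio of resting over activated was 0.49 in BLM (0.46 to 0.51) and 0.43 in naive (0.39 to 0.48). In BLM 67 of 74 members were higher in resting cells and 22 were past 1.5-fold, beside 20.4% of all genes, and 9 were when cells were thinned to 1000 UMIs. In naive cells 68 of 73 were higher and 17 past 1.5-fold, beside 29.2% of all genes, a smaller share than among all genes, and 26 were when thinned. The median member was at 0.43 and 0.42 and the median gene at -0.07 and 0.08.

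Rpl36a stood highest in BLM, with 2493 CPM in resting and 1118 in activated cells (log2 ratio 1.16, 0.91 to 1.41), and Rps27 second with 3721 and 2021 (0.88, 0.69 to 1.07). Rpl24 was at the other end in both libraries, with 431 and 554 CPM in BLM (-0.36, -0.84 to 0.11) and 550 and 883 in naive cells (-0.68, -1.23 to -0.11). The 6 other ribosomal proteins gave 0.53 and 0.37 and the TOP genes 0.26 and 0.30. Within the TOP list of BLM cells, Tpt1, a growth-linked tumor protein, had 7069 and 5017 CPM (0.49), but the histone chaperone gene Nap1l1 446 and 831 (-0.90). Markers of other classes differed in both directions. C1q macrophage markers were at 1175 CPM in activated and 132 in resting BLM cells but at 46.5 and 63.8 in naive cells. NK markers were at 1022 and 93.3 in naive cells but at 10.3 and 29.2 in BLM. The dissociation stress list was higher in activated cells, at 4243 against 2990 CPM in BLM and 3624 against 2361 in naive cells. The part of all these in the share was not tested. The middle 50% of single cells had 11.7 to 15.6% in activated and 14.8 to 21.7% in resting BLM cells.

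Tregs were lower still in BLM. Foxp3-gated cells had 11.1% of UMIs in members in BLM (67 cells) and 12.5% in naive (16 cells), and resting CD4 T cells exceeded them by a log2 ratio of 0.70 (0.67 to 0.72) and 0.37 (0.34 to 0.41). In BLM 45 of 74 members were past 1.5-fold higher in resting CD4 T cells, beside 21.8% of all genes, but in naive cells 14 of 73 were, beside 23.8%, a smaller share than among all genes. Rpl14 had 1126 and 504 CPM in resting cells and Tregs (log2 ratio 1.16) and Rps16 4255 and 1918 (1.15), whereas Rpl24 had 431 and 529 (-0.30, -0.78 to 0.18). Rps27l was at 66.2 CPM (13 UMIs) in BLM Tregs and 14.6 (2 UMIs) in resting CD4 T cells. Gamma delta T cells lay at 14.6% and 13.5%, and proliferating lymphocytes at 12.6% and 11.6%.

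Effector CD8 T cells were rare, with 13 cells in BLM and 7 in naive. Their member share was 16.5% and 11%, below that of resting CD8 T cells by a log2 ratio of 0.42 (0.38 to 0.46) and 0.81 (0.74 to 0.88). Of 75 members 16 were past 1.5-fold higher in resting cells in BLM, beside 30.3% of all genes, and 57 of 75 in naive, beside 37.6%. With the stricter gate the BLM count was 55 and the ratio 0.75, and with doublets kept the naive count was 31 and the ratio 0.56, so the size of the difference was not fixed by these few cells. NK markers were at 331 CPM in effector and 119 in resting BLM cells and at 3081 and 142 in naive cells, and their part was not tested. The NK marker Gzma is also a gene of the effector gate, so the gate itself can raise this sum in effector cells. Rps20 was at 4870 CPM in resting and 2348 in effector BLM cells (1.05, 0.71 to 1.41).

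B cells did not follow that order. Activated B cells had 16.1% and 14.1% and resting B cells 14.8% and 13.1%, a log2 ratio of resting over activated of -0.12 (-0.14 to -0.11) in BLM and -0.10 (-0.12 to -0.08) in naive cells. Proliferating macrophages and dendritic cells, too, had more than alveolar macrophages (6.75% and 7.24% against 5.71% and 6.31%). That class is mixed, with C1q macrophage markers at 2875 CPM against 406 in BLM and 377 against 100 in naive, and cDC2 markers at 613 against 452 and 1251 against 607. The part of this mixture was not tested, and BLM C1q macrophages had 6.83%.

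Among dendritic cells, the 2 libraries gave different values. Immature cells (cDC1 and cDC2 together) had 10.3% and 10.4% in BLM and naive, and migratory cells 10.7% (79 cells) and 8.01% (23 cells). The log2 ratio of immature over migratory was -0.05 in BLM (-0.06 to -0.03), which became 0.01 with the stricter gate, and 0.38 in naive (0.35 to 0.41). In naive cells 18 of 76 members were past 1.5-fold higher in immature cells, beside 32.7% of all genes, and in BLM 3 of 76 were past 1.5-fold lower, beside 20.9%, both smaller shares than among all genes. Those 3 were Rps27l (269 CPM in immature and 624 in migratory cells, log2 ratio -1.21, -1.44 to -0.98), Rps19 (1137 and 2056, -0.85) and Rpsa (-0.67). Rps27l was also the lowest in naive cells (219 and 423, -0.95, -1.37 to -0.51). The ribosome assembly list had 21 of 26 genes past 1.5-fold higher in immature BLM cells, beside 32.6% of all genes, and 8 of 24 in naive, close to the 32.7% of all genes there. The dissociation stress list summed to 3813 and 2352 CPM in immature and migratory BLM cells and to 6192 and 4271 in naive cells, and alveolar macrophage markers to 3278 and 479 CPM in BLM and 996 and 623 in naive cells. C1q macrophage markers were at 1426 and 171 CPM in BLM and 707 and 208 in naive cells. The part of these in the share was not tested. Plk2, another p53 target, was also lower in immature naive cells, at 33.7 CPM in immature and 362 in migratory cells (-3.42, -4.06 to -2.79). In that comparison 23.5% of all genes were past 1.5-fold lower. The remaining p53 targets are not given here, so these values describe single genes and not the list.

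C1q macrophages were split by Spp1, Arg1 and Gpnmb, genes of the scar-associated macrophage state. In BLM 319 cells had at least 2 of these and 121 had fewer, while all 59 naive cells had fewer. The member share was 8.24% in BLM cells with little Spp1 (8.17 to 8.30), 6.55% in those with Spp1 (6.52 to 6.57) and 6.37% in the naive cells (6.28 to 6.46). The log2 ratio of little over with Spp1 was 0.33 (0.32 to 0.34), and 75 of 77 members were higher in cells with little Spp1. None passed 1.5-fold, beside 14.8% of all genes. With the stricter gate 15 did, a setting for which the share of all genes is not given. The ratios of the members lay close together, with a middle 50% of 0.26 to 0.38. Rps27 (1019 and 694 CPM, 0.56, 0.44 to 0.67) and Rpl13 (687 and 467, 0.56, 0.41 to 0.70) were highest, and Rps2 (-0.07) and Rpl41 (-0.06) lowest, both with intervals that held 0. The TOP genes summed to 0.33 (0.30 to 0.36), with Eef1a1 at 6776 and 5371 CPM, and the mitochondrial ribosomal proteins to -0.05 (-0.13 to 0.02). Cells with Spp1 had a median of 11058 UMIs against 5576, and alveolar macrophage markers summed to 3857 CPM against 1328. The part of depth and of these markers was not tested. BLM cells with little Spp1 exceeded the naive C1q macrophages by a log2 ratio of 0.37 (0.35 to 0.39), with the stress list at 5585 and 10642 CPM.

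Within a class, cells with a high member share also had a high share of the 15 TOP genes. The Spearman correlation across cells was 0.64 and 0.67 in BLM and naive B cells (557 and 737 cells), 0.81 and 0.80 in T cells (716 and 606), 0.82 and 0.80 in C1q macrophages (440 and 59) and 0.26 and 0.24 in neutrophils (952 and 435). Cells of 1 library share its depth and both shares have the same denominator, so these values are descriptions. With the UMI total of the cell the correlation was 0.55 and 0.54 in NK cells (133 and 246 cells), but -0.36 and -0.20 in C1q macrophages.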

How the data were processed

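CD45+ lung cells of 1 BLM and 1 naive library (3 pooled mice each) were profiled. Per the file headers, the authors used the BD WTA Rhapsody Analysis Pipeline 1.8 with GENCODE vM19 (GRCm38) and deposited counts of molecules per gene and cell. The rest was computed here from these counts with Python 3.11.15, scanpy 1.11.5 (Scrublet) and SciPy 1.17.1.

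Cells with at least 200 genes and at most 15% mitochondrial UMIs were kept. Scrublet marked 8 of 4526 BLM cells (0.177%) and 61 of 3925 naive cells (1.55%) by its automatic threshold, which was not used, and the 3% with the highest score were left out in each library (136 and 118). Cells were assigned by mean z-scores of marker genes on log-normalized counts (score at least 0.3, margin 0.2, at least 2 markers detected). Cells that scored highest for T, NK or ILC2 markers were also called T cells if they had at least 3 T cell markers, including Cd3e, Cd3d, Cd3g or Trac. Proliferating cells needed at least 3 of the cycle markers.

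UMIs were summed per class and library. Shares carry exact (Clopper-Pearson) and ratios exact conditional 95% intervals, which cover counting error only. Genes with at least 20 UMIs over both sides entered the counts past 1.5-fold. With 1 library per group no test was made. Copies were found from 75-base stretches of the GENCODE vM21 transcripts (GRCm38). The ratio script was tested on simulated data.

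Genes were named by rule: the 10 most and 5 least abundant members, paralogues, the 2 highest and 2 lowest members (at least 100 UMIs) of a comparison relative to the median member, and in other lists the 3 most abundant, the highest and the lowest gene, with Cdkn1a, Mdm2 and Myc. Genes named for the spread over classes, the shift shared by all classes and the counts past 1.5-fold were chosen after their values were seen, as were the comparisons with Tregs, of B cell states and of proliferating cells. Members and lists were chosen with earlier results of these data known. Alternatives were doublets kept, a 10% mitochondrial limit, thinning to 1000 UMIs (cells with fewer left out), no mitochondrial UMIs in the total, stricter gates (margin 0.4, state lead 2) and the mean over cells. After the data were seen, a minimum of 100 UMIs per gene and the addition of copies and other ribosomal proteins were added. Some genes that the naming rule selects are not reported here.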

Additional observations from a re-analysis of the deposited data

Results flagged for a closer look

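The BLM over naive ratio of the member share took opposite directions in different classes. Its log2 value was 0.19 in B cells, 0.10 in T cells, 0.35 in NK cells, 0.10 in C1q macrophages and 0.01 in classical monocytes, with intervals above 0, and -0.14 in alveolar macrophages, -0.11 in nonclassical monocytes and -0.09 in neutrophils, with intervals below 0. The difference between classes was not tested, since each class has 1 library per group.

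Among the 12 columns of copies outside the rule, Gm10076, a copy of Rpl41, was the exception in being higher in BLM, with a log2 ratio of 0.10 over all kept cells (0.03 to 0.18). The other 11 were lower in BLM, and the 12 together had a log2 ratio of -0.27 (-0.29 to -0.25).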

How the results depend on the processing

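Of 199 recomputed ratios and counts, 147 stayed within the counting interval (ratios) or within 1.5 times (counts), and 1 changed direction. Log2 ratios are given first. With doublets kept, BLM over naive was -0.01 in neutrophils, resting over effector CD8 T cells 0.56 in naive, and immature over migratory dendritic cells 0.34 in naive. With the 10% mitochondrial limit, BLM over naive was 0.18 in B cells and 0.09 in T cells, resting over effector CD8 T cells 0.50 and immature over migratory dendritic cells -0.03 in BLM. Thinned to 1000 UMIs, BLM over naive was 0.09 in T cells, 0.18 in resting CD8 T cells and -0.12 in alveolar macrophages, resting over activated CD4 T cells 0.34 and resting over effector CD8 T cells 0.49 in BLM, immature over migratory dendritic cells 0.28 in naive, and C1q macrophages with little over with Spp1 0.30. Without mitochondrial UMIs, T cells gave 0.09 and resting over activated CD4 T cells 0.52 in BLM. With stricter gates, alveolar macrophages gave -0.17, resting over activated CD4 T cells 0.64 and resting over effector CD8 T cells 0.75 in BLM, immature over migratory dendritic cells 0.01 in BLM (reversed) and 0.41 in naive, and C1q macrophages 0.47. As the mean over cells, T cells gave 0.09, resting over activated CD4 T cells 0.37 and over effector CD8 T cells 0.49 in BLM, immature over migratory dendritic cells -0.02 in BLM and 0.31 in naive, and C1q macrophages 0.28. With copies and the other ribosomal proteins added, alveolar macrophages gave -0.16.

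Counts of members past 1.5-fold moved as follows. The share of all genes past 1.5-fold under each setting is not given, so these counts do not show whether members stand out from it. With doublets kept there were 6 in NK cells, 0 in neutrophils, and 31 for naive resting over effector CD8 T cells. With the 10% limit there were 2 in B cells and 27 for BLM resting over effector CD8 T cells. Thinned, there were 3 in alveolar macrophages, 9 and 26 for resting over activated CD4 T cells in BLM and naive, 28 for resting over effector CD8 T cells in BLM, and 7 in C1q macrophages. With stricter gates there were 1 in resting CD8 T cells, 36 and 55 for resting over activated CD4 and over effector CD8 T cells in BLM, and 15 in C1q macrophages. With at least 100 UMIs per gene there were 3 in alveolar macrophages. The 2 members past 1.5-fold lower in BLM T cells became 1 with doublets kept, with the 10% limit and with stricter gates, and 0 when thinned or with 100 UMIs per gene. The 1 member past 1.5-fold higher in BLM alveolar macrophages became 0 when thinned or with 100 UMIs per gene, and the 1 higher in immature BLM dendritic cells became 0 with doublets kept. The cause of these changes was not tested.

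The shares of the 10 classes compared moved by at most 0.78 percentage points under the doublet, 10%, gate, thinning and cell-mean settings. Leaving mitochondrial UMIs out raised them by 0.01 to 1.6 points and adding copies and other ribosomal proteins by 0.23 to 1.8. Some other classes and states moved more. Thinned, plasma cells went from 9.30% to 11.9% in BLM and from 7.59% to 9.82% in naive, and BLM activated CD4 T cells from 12.9% to 14.0%. No paired analysis was possible because each group is 1 library of pooled mice. Depth limits the low paralogues and the states with few cells most.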

Other observations

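Of the snoRNA host genes, whose introns carry the guides for rRNA modification, both with at least 20 UMIs in B cells were past 1.5-fold higher in BLM. In that comparison 6.16% of all genes were, and so few host genes do not describe the class. The list summed to 331 CPM in BLM and 195 in naive cells (log2 ratio 0.77, 0.55 to 0.98). The mTORC1 and growth regulator list summed to a log2 ratio of 0.10 in B cells (0.03 to 0.17). For resting over activated CD4 T cells it summed to 0.51 (0.32 to 0.71) in BLM and 0.29 (-0.01 to 0.59) in naive. This list holds Rps6, which is also a member, so its sum is not separate from the member share. The sum without Rps6 is not given here.

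Immature-type neutrophils had 1.90% and 2.02% of UMIs in members and activated neutrophils 1.93% and 1.98%, with log2 ratios of -0.02 (-0.07 to 0.02) in BLM and 0.03 (-0.02 to 0.09) in naive, and both intervals held 0. Plasmacytoid dendritic cells had 13.2% in BLM (19 cells) and 10.5% in naive (25 cells), and plasma cells, whose secretory transcripts fill much of their mRNA, 9.30% (15 cells) and 7.59% (25 cells).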
